A study of Mus musculus with 9 samples.

Results

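Metallothioneins and zinc transport were followed in RNA sequencing libraries of the mouse anterior lens capsule, the basement membrane that covers the lens towards the cornea, together with its single layer of epithelium. The set has 8 genes, found by their symbols in a deposited count table of 17527 genes. They are the metallothioneins Mt1, Mt2 and Mt3, the zinc sensor Mtf1, the zinc exporter Slc30a1 and the zinc importers Slc39a1, Slc39a10 and Slc39a14. All 8 passed the filter on low counts that left 13711 genes for testing. The 9 libraries fall into 3 groups of 3, which are aged mice treated with EGCG (epigallocatechin gallate, the main green tea catechin), aged control mice and young control mice. The study's title names EGCG as delaying age-related cataract through RASSF2 and AKT, which sets the questions of what differs with age and what differs with EGCG in aged mice. The sources used here do not give the strain, genotype, ages, dose, route or length of treatment. They also do not say whether 3 libraries of 1 group stand for 3 animals, for pools or for repeated preparations, so a p-value here measures the spread among these samples alone, and that spread may be technical. The design text speaks of duplicates while the labels list 3 libraries in each group, so n = 3 below counts libraries and may not count animals.

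Metallothioneins are small, cysteine-rich proteins that bind zinc and copper and are made in larger amounts when cells meet free metal, oxidants or glucocorticoids. The transcription factor MTF1 binds zinc through its zinc fingers and then switches on Mt1, Mt2 and Slc30a1 through short metal response elements in their promoters. Transporters of the SLC30 family (ZnT) move zinc out of the cytosol, and those of the SLC39 family (ZIP) move zinc into it. In the lens, metallothioneins have been studied as protectors of the epithelium against metals and oxidants, whereas Mt3 is known mainly from the nervous system.

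In the GENCODE annotation of GRCm38, Mt3, Mt2 and Mt1 stand in this order on the plus strand of 1 stretch of chromosome 8, at chr8:94152607-94154146, chr8:94172664-94173568 and chr8:94179082-94180327. Mt2 and Mt1 are separated by 5513 bases, and Mt3 and Mt2 by 18517 bases. Mt4, the fourth gene of the cluster, had 1 count in 1 aged control library and 0 in the other 8, where a count of 0 allows a level of up to 0.232 CPM, a unit in which counts are expressed relative to the size of the library. Mtf1 lies at chr4:124802104-124849800, Slc30a1 at chr1:191906767-191913247 and Slc39a1 at chr3:90248172-90253612, all on the plus strand. Slc39a10 at chr1:46807544-46892852 and Slc39a14 at chr14:70303469-70351425 lie on the minus strand. All 8 are annotated as protein coding.

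Promoter windows from RefSeq on GRCm38.p6, running from 250 bases before the RefSeq start to 50 bases after it, were found for 7 of the 8 genes, and Slc39a14 had none. The windows of the 3 metallothioneins and of Slc30a1 are printed. These were also the members' windows that held a match to the core of the metal response element, the site MTF1 binds. Capitals mark each match to the core TGCACNC or TGCGCNC on either strand. The windows are chr8:94178839-94179138 for Mt1, chr8:94172368-94172667 for Mt2, chr8:94152357-94152656 for Mt3 and chr1:191906531-191906830 for Slc30a1, all on the plus strand.
Mt1: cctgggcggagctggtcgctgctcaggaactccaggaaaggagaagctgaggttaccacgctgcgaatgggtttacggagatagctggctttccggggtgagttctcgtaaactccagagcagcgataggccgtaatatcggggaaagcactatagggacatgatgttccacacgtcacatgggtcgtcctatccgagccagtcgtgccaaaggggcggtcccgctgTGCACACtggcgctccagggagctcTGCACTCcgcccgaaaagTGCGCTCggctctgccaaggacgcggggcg
Mt2: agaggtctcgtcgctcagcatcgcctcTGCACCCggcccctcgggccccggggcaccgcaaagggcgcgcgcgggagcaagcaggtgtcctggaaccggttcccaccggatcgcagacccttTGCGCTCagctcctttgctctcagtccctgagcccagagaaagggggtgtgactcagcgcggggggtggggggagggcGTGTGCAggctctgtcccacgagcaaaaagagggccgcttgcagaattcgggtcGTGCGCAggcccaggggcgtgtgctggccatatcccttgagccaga
Mt3: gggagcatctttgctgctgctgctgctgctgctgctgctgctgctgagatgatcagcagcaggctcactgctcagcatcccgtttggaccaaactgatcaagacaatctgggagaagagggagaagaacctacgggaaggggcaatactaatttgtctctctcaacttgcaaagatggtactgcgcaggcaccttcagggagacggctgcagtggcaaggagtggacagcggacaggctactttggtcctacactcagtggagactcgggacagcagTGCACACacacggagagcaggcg
Slc30a1: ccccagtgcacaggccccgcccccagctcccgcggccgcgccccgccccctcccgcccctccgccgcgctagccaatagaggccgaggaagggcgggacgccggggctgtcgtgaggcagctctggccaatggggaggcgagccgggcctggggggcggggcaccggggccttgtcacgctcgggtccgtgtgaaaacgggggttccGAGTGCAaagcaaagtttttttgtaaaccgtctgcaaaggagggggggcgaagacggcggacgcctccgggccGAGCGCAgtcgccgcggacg
The Mt2 window held 4 matches, the Mt1 window 3, the Slc30a1 window 2 and the Mt3 window 1, while the windows of Mtf1, Slc39a1 and Slc39a10 held 0. Of all 32851 RefSeq promoter windows of this length, 25.7% held at least 1 match, 7.11% at least 2, 1.97% at least 3 and 0.517% at least 4. The TGCACNC form alone was in 12.59% of windows and the TGCGCNC form in 15.39%. The core of the antioxidant response element, TGACNNNGC on either strand, was in 12.39% of windows and occurred 1 time each in those of Mt2, Slc30a1 and Slc39a1. It overlapped no match to the metal response element. The RefSeq start of Mt1 is base 94179089, and the annotation also lists Mt1 transcripts starting at bases 94179211 and 94179241, beyond the end of the printed window. That of Mt2 is base 94172618, before the annotated gene start at base 94172664. Transcripts of Mt2, Mt3 and Slc30a1 starting at bases 94172860, 94152746 and 191907256 also lie beyond the printed windows. A match describes letters in a window and is no measurement of binding.

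Between aged control and young control capsules, the zinc sensor Mtf1, the zinc exporter Slc30a1 and the metallothionein Mt3 were lower, Mt2 and the importer Slc39a1 were higher, and Mt1, Slc39a10 and Slc39a14 were not called. In edgeR's quasi-likelihood test at an adjusted p under 0.05, 5 of the 8 genes were thus called, 2 higher and 3 lower. The 2 higher calls depend on the scaling, and both were lost by library size alone and by lens fibre genes. Over all 13711 genes tested 69.2% were called, 35.4% higher and 33.8% lower, so the members' count is near the background. The libraries of the groups did not overlap for 5 of the 8 genes, beside 72.2% of all genes tested. The median log2 change of the 8 genes was 0.01, beside 0.02 over all genes tested.

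Between aged EGCG and aged control capsules, Mt1 and Mt2 were lower and Mt3 and Mtf1 were higher, whereas the 4 transporters were not called. For the transporters the count was 0 in edgeR at an adjusted and at an unadjusted p under 0.05, and 0 in DESeq2 at an adjusted p. This made 4 called genes of 8, 2 higher and 2 lower, beside a background of 24.1% called, 13.8% higher and 10.3% lower. The libraries did not overlap for 3 of the 8, beside 33.5% of all genes tested, and the median log2 change was −0.055, beside −0.0038 over all genes. Between aged EGCG and young control capsules 5 of the 8 were called, 1 higher and 4 lower, beside 63.6% called, 32.3% higher and 31.4% lower over all genes. In that comparison the libraries did not overlap for 5 of the 8, beside 68.3% of all genes, and the median log2 change was −0.40, beside −0.02. Each pair of these comparisons shares 3 libraries, so their values stand side by side and are not independent of each other. The levels below are CPM after TMM scaling, which sets the libraries to a common scale by trimmed mean ratios over genes, and log2 changes have their standard error (SE).

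Mt1 and Mt2 encode the 2 widely expressed metallothioneins. Mt1 stood at 17.6, 13.4 and 13.8 CPM in the aged EGCG libraries, at 20.8, 30.0 and 18.4 CPM in the aged control libraries and at 17.6, 22.1 and 20.03 CPM in the young control libraries. On the TMM scale every EGCG library was below every aged control library, while the aged and young control libraries overlapped, and the aged control library of replicate 2 was the highest of the 9. In FPKM, counts per length and library total, EGCG replicate 1 stood at 16.6, above aged control replicate 3 at 16.3. In EGCG capsules Mt1 was 1.55-fold lower than in aged control capsules, a log2 change of −0.63 (SE 0.143, edgeR adjusted p = 0.00062). Without aged control replicate 2 this log2 change was −0.39 with an edgeR adjusted p of 0.0543, and on log2(FPKM + 1) it was −0.45 with a limma adjusted p of 0.0527.

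Mt2 stood at 9.37, 7.88 and 6.44 CPM in EGCG libraries, at 12.2, 15.8 and 12.2 CPM in aged control libraries and at 10.6, 9.34 and 10.99 CPM in young control libraries. On the TMM scale all aged control libraries were above all others, and the EGCG and young control libraries overlapped by a narrow margin. Mt2 fell 1.70-fold in EGCG capsules relative to aged control capsules, a log2 change of −0.76 (SE 0.172, edgeR adjusted p = 0.000534). This call held in all 20 alternative settings, with log2 changes between −0.90 and −0.60.

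The age contrast of Mt1 and Mt2 was smaller and turned on the scaling. Mt2 was higher in aged control than in young control capsules by a log2 change of 0.38 (SE 0.165, edgeR adjusted p = 0.0382). Scaled by library size alone that change was 0.06 (edgeR adjusted p = 0.769), and scaled to lens fibre genes it was −0.032. The call was also lost with the size factors of DESeq2 in edgeR (adjusted p = 0.0678) and in DESeq2 itself (adjusted p = 0.0848). It was lost as well without aged control replicate 2, young control replicate 1 or young control replicate 2. For Mt1 the log2 change between aged and young control capsules was 0.22, with a 95% interval of −0.06 to 0.49 and an edgeR adjusted p of 0.161, and it was −0.11 when scaled by library size alone.

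Against young control capsules, EGCG capsules had 1.33-fold less Mt1 (log2 change −0.41, SE 0.143, edgeR adjusted p = 0.0109). The libraries of these groups were apart by a narrow margin, with EGCG replicate 1 at 17.640 CPM and young control replicate 1 at 17.648 CPM. Without EGCG replicate 2 or without young control replicate 2 the edgeR adjusted p was 0.0623 or 0.0712. The corresponding change of Mt2 was −0.38 (SE 0.173), and its edgeR adjusted p of 0.0504 was just beyond the threshold. Mt2 was called lower here in 4 of the 9 fits that left out 1 library, with the replicate number as a block, and under all 4 other scalings, where the log2 change lay between −0.75 and −0.43.

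Taken as a sum, Mt1 and Mt2 together reached 22.9 ± 3.63 CPM in EGCG libraries, 36.5 ± 8.18 CPM in aged control libraries and 30.2 ± 1.73 CPM in young control libraries (SD, n = 3 each). The ratio of Mt1 counts to Mt2 counts lay between 1.70 and 2.14 in EGCG libraries, between 1.51 and 1.89 in aged control libraries and between 1.67 and 2.36 in young control libraries. These ranges overlapped, so the balance between the 2 transcripts did not separate the groups.

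**Figure D1:**
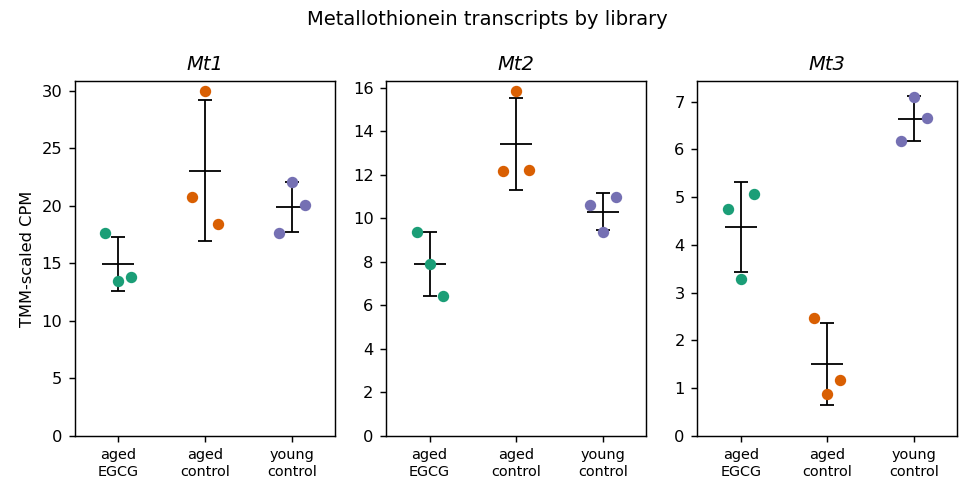
Levels of Mt1, Mt2 and Mt3 in each library as TMM-scaled CPM on linear axes that start at 0, with aged EGCG, aged control and young control from left to right; points are libraries, and the bar and whiskers give the mean and SD of 3. The EGCG points lie below the aged control points for Mt1 and Mt2 and above them for Mt3. The sign of each group change held under all 4 other scalings, whereas by library total the Mt1 points of these groups overlap.

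Mt3, the metallothionein of neurons and glia, moved the other way. Its counts were 65, 48 and 66 in EGCG libraries, 36, 13 and 15 in aged control libraries and 98, 114 and 109 in young control libraries, so its levels rest on the fewest reads of the 8 genes. After scaling these were 4.76, 3.29 and 5.06 CPM in EGCG libraries, 2.48, 0.876 and 1.16 CPM in aged control libraries and 6.18, 7.10 and 6.66 CPM in young control libraries. The 3 groups did not overlap, with aged control lowest and young control highest.

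Mt3 was 4.38-fold lower in aged control than in young control capsules (log2 change −2.13, SE 0.309, edgeR adjusted p = 4.79e-08). It was 2.88-fold higher in EGCG than in aged control capsules (log2 change 1.52, SE 0.320, edgeR adjusted p = 0.000219). Both calls held in all 20 alternative settings, with log2 changes from −2.71 to −1.85 for age and from 1.24 to 2.10 for EGCG. Relative to young control capsules Mt3 was 1.52-fold lower in EGCG capsules (log2 change −0.61, SE 0.273, edgeR adjusted p = 0.0490), a call that was lost in 5 of the 9 fits that left out 1 library. Of the counts of the 3 metallothioneins, Mt3 took 13.4% to 20% in EGCG libraries, 1.88% to 6.99% in aged control libraries and 17.7% to 18.4% in young control libraries.

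Mtf1 encodes the zinc-sensing factor that acts on Mt1, Mt2 and Slc30a1. It stood at 15.4, 10.8 and 15.6 CPM in EGCG libraries, at 10.2, 10.99 and 10.2 CPM in aged control libraries and at 24.0, 21.2 and 18.1 CPM in young control libraries. The young control libraries were above all others, and EGCG replicate 2 lay within the aged control range. Mtf1 was 2.01-fold lower in aged control than in young control capsules (log2 change −1.01, SE 0.146, edgeR adjusted p = 4.50e-08), which held in all 20 alternative settings with log2 changes from −1.42 to −0.71.

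In EGCG capsules Mtf1 was 1.33-fold higher than in aged control capsules (log2 change 0.41, SE 0.152, edgeR adjusted p = 0.0415). That call was lost in 11 of 20 alternatives, which included 6 of the 9 fits without 1 library, with adjusted p-values of up to 0.180. Relative to young control capsules Mtf1 was 1.52-fold lower in EGCG capsules (log2 change −0.60, SE 0.142, edgeR adjusted p = 0.000294), and with the length trend removed the log2 change was −0.30 (edgeR adjusted p = 0.0584). Mtf1 shares 721 exonic bases, 8.09% of its exons, with 1110065P20Rik on the opposite strand, a gene named here after its values were seen. That gene stood at 36.7 ± 3.58 CPM in EGCG libraries, 41.1 ± 5.63 CPM in aged control libraries and 21.3 ± 1.77 CPM in young control libraries (SD, n = 3 each), and it was higher in aged control than in young control capsules (edgeR adjusted p = 4.73e-11), where Mtf1 was lower. Use of strand in the counting is not given in the sources used here, and reads of the shared bases cannot be told apart without it.

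Slc30a1 encodes ZnT1, the exporter that carries zinc out of the cell across the plasma membrane. It stood at 14.8, 16.2 and 12.9 CPM in EGCG libraries, at 11.8, 14.2 and 13.7 CPM in aged control libraries and at 20.4, 20.9 and 21.4 CPM in young control libraries. All 6 aged libraries were below all young control libraries, and the EGCG and aged control libraries overlapped. Slc30a1 was 1.58-fold lower in aged control than in young control capsules (log2 change −0.66, SE 0.131, edgeR adjusted p = 1.81e-05) and 1.43-fold lower in EGCG than in young control capsules (log2 change −0.51, SE 0.130, edgeR adjusted p = 0.00063). Both calls held in all 20 alternative settings. Between EGCG and aged control capsules the log2 change was 0.15, with a 95% interval of −0.12 to 0.42 and an edgeR adjusted p of 0.481.

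Mt1, Mt2 and Slc30a1, the 3 textbook targets of MTF1 among the members, thus differed in their pattern over the groups. With age Slc30a1 fell with Mtf1, while Mt2 was higher on the TMM scale and Mt1 was not called. The age call of Mt2 held in only 9 of 20 alternative settings, where its log2 change lay between −0.15 and 0.45. With EGCG in aged capsules Mt1 and Mt2 fell, Mtf1 was higher, and Slc30a1 was not called. This call of Mtf1 also held in only 9 of 20 alternatives, although its log2 change stayed between 0.32 and 0.58. Differences between these genes were not tested against each other.

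Slc39a1 encodes ZIP1, an importer of the plasma membrane. It stood at 45.7, 45.6 and 50.2 CPM in EGCG libraries, at 54.7, 49.0 and 47.5 CPM in aged control libraries and at 37.4, 37.8 and 38.0 CPM in young control libraries. Every aged library was above every young control library. On the TMM scale Slc39a1 was 1.34-fold higher in aged control than in young control capsules (log2 change 0.42, SE 0.083, edgeR adjusted p = 2.03e-05) and 1.25-fold higher in EGCG than in young control capsules (log2 change 0.32, SE 0.084, edgeR adjusted p = 0.000906). Scaled by library size alone the age change was 0.09 (edgeR adjusted p = 0.322), and scaled to lens fibre genes it was 0.0051 (edgeR adjusted p = 0.965). The change between EGCG and young control capsules was not called either by library size (0.13), by lens fibre genes (0.076) or with the length trend removed (0.086). Between EGCG and aged control capsules the log2 change was −0.10, with a 95% interval of −0.26 to 0.07 and an edgeR adjusted p of 0.441. Of the 50-base stretches of its transcripts 21.8% also occur in the pseudogene Slc39a1-ps, so its level is uncertain where the counting could split such reads.

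Slc39a10 and Slc39a14 encode ZIP10 and ZIP14, importers that also respond to zinc status or to inflammation in other tissues. Slc39a10 lay between 34.3 and 36.0 CPM in EGCG libraries, between 33.3 and 42.8 CPM in aged control libraries and between 34.6 and 38.5 CPM in young control libraries. Slc39a14 lay between 11.9 and 17.3 CPM in EGCG libraries, between 13.2 and 15.5 CPM in aged control libraries and between 11.7 and 16.0 CPM in young control libraries. The groups overlapped for both genes in every comparison. For Slc39a10 the log2 change was −0.01 for age, with a 95% interval of −0.20 to 0.18, and −0.08 for EGCG against aged control, with an interval of −0.27 to 0.11. For Slc39a14 these changes were 0.04, with an interval of −0.26 to 0.33, and −0.03, with an interval of −0.33 to 0.27. Against young control capsules, EGCG capsules had intervals of −0.29 to 0.10 for Slc39a10 and −0.29 to 0.31 for Slc39a14. Slc39a10 was called lower with age when scaled by library size alone (log2 change −0.33, edgeR adjusted p = 0.00285) or to lens fibre genes (−0.42, edgeR adjusted p = 0.000146), and higher with the length trend removed (0.57, edgeR adjusted p = 1.73e-07). Between EGCG and young control capsules it was likewise called lower by library size (−0.29, edgeR adjusted p = 0.0108) or lens fibre genes (−0.34, edgeR adjusted p = 0.00273), and higher with the length trend removed (0.46, edgeR adjusted p = 1.57e-05). For Slc39a10 that trend was removed at the length behind its FPKM, 15958 bases, against 6095 exonic bases in the annotation. Its higher calls therefore depend on the length used. Slc39a14 was called lower with age when scaled to lens fibre genes (−0.37, edgeR adjusted p = 0.0223) and higher with the length trend removed (0.37, edgeR adjusted p = 0.0258), which also called it higher in EGCG than in young control capsules (0.33, edgeR adjusted p = 0.0498).

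**Figure D2:**
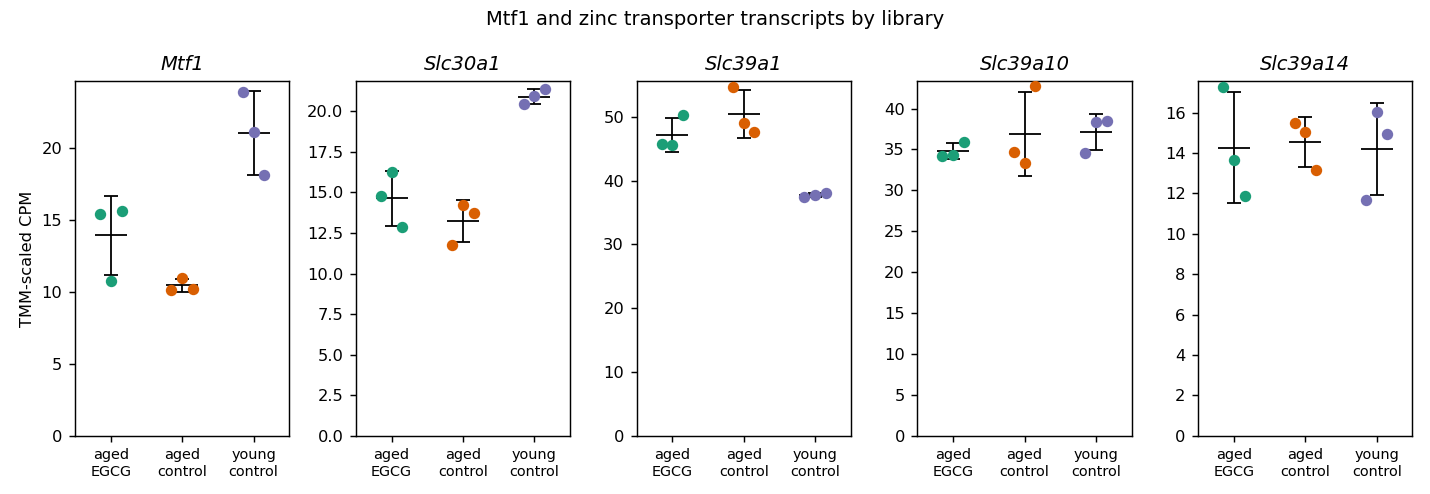
Levels of Mtf1, Slc30a1, Slc39a1, Slc39a10 and Slc39a14 in each library as TMM-scaled CPM on linear axes that start at 0, with aged EGCG, aged control and young control from left to right; points are libraries, and the bar and whiskers give the mean and SD of 3. Young control libraries are highest for Mtf1 and Slc30a1 and lowest for Slc39a1 on this scale, and the groups overlap for Slc39a10 and Slc39a14.

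**Figure D3:**
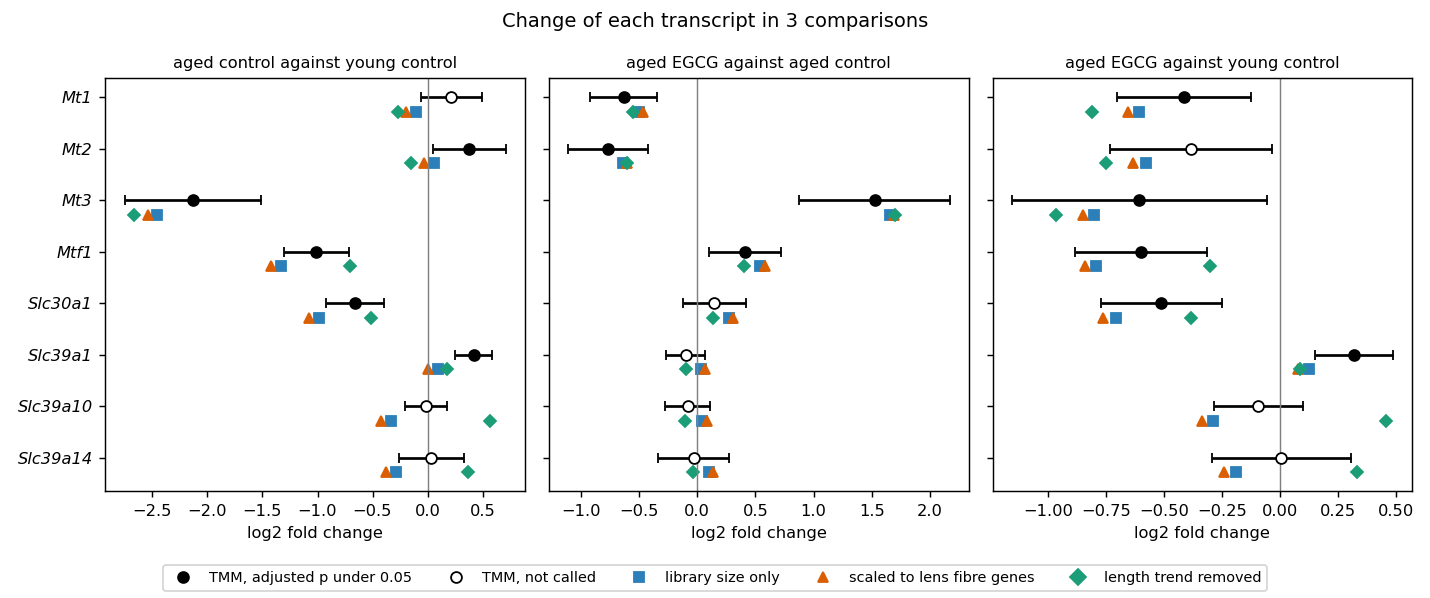
Log2 fold change of the 8 genes in the 3 comparisons, with the 95% interval derived from the edgeR test on the TMM scale (filled where the adjusted p was under 0.05) and, below each, the change under 3 other scalings. For Mt1 and Mt2 the age change is on either side of 0 depending on the scaling, while for Mt3, Mtf1 and Slc30a1 all markers stay below 0 in the age comparison.

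Which of the 8 transcripts was most abundant was read from FPKM, counts per length and library total. In EGCG libraries Slc39a1 led with 19.7 ± 1.19 FPKM, above Mt1 with 14.1 ± 2.15 and Mt2 with 14.0 ± 2.54 FPKM, which did not differ beyond their spread, and above Mt3 with 7.999 ± 1.75 FPKM (SD, n = 3 each). In aged control libraries Mt2 with 21.7 ± 3.36, Mt1 with 19.9 ± 5.14 and Slc39a1 with 19.2 ± 1.03 FPKM overlapped, and Mt3 followed with 2.505 ± 1.37 FPKM (SD, n = 3 each). In young control libraries Mt1 with 21.5 ± 2.26 and Mt2 with 20.9 ± 1.86 FPKM overlapped, above Slc39a1 with 18.02 ± 0.181 and Mt3 with 13.9 ± 0.894 FPKM (SD, n = 3 each).

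The other 4 were the lower part of the order in every group. Slc30a1 had 2.69 ± 0.303 FPKM in EGCG libraries, 2.23 ± 0.256 in aged control libraries and 4.40 ± 0.103 in young control libraries. Mtf1 had 1.80 ± 0.358 FPKM in EGCG libraries, 1.24 ± 0.059 in aged control libraries and 3.11 ± 0.431 in young control libraries (SD, n = 3 each). Slc39a10 averaged 2.15, 2.09 and 2.62 FPKM and Slc39a14 averaged 1.74, 1.62 and 1.98 FPKM in EGCG, aged control and young control libraries. Neighbours overlapped for Mtf1 and Slc39a14 in EGCG libraries, for Mt3, Slc30a1 and Slc39a10 in aged control libraries, and for Mtf1 and Slc39a10 in young control libraries. The length behind the FPKM of Slc39a10 was 15958 bases, against 6095 exonic bases in the annotation, and that of Mt3 was 538 against 1066, so the places of these 2 in the order depend on the length used.

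Among the other zinc transporters, Slc39a7 (ZIP7, which releases zinc from the endoplasmic reticulum) had the highest level with 49.3 ± 1.90 FPKM in EGCG libraries, 43.5 ± 1.47 in aged control libraries and 41.5 ± 2.88 in young control libraries (SD, n = 3 each). Slc30a9, singled out after its values were seen, was next with 21.4 ± 1.68 FPKM in EGCG libraries, 19.3 ± 1.25 in aged control libraries and 24.2 ± 1.32 in young control libraries (SD, n = 3 each). The list of other transporters had 21 genes in the table, of which 18 were tested, and Slc30a2, Slc30a8 and Slc39a5 were too low. With age 7 of the 18 rose and 5 fell on the TMM scale, with a median log2 change of 0.04. Scaled by library size alone the calls were 3 higher and 9 lower, and the median was −0.28. With EGCG in aged capsules 2 rose and 2 fell on the TMM scale, with a median of 0.04, whereas by library size alone 5 were called higher and 1 lower, and the median was 0.16. All genes by library size then split into 3086 higher and 611 lower, with a median of 0.12. Between EGCG and young control capsules 5 rose and 4 fell, with a median of 0.02 on the TMM scale and −0.17 by library size alone. There the median of all genes by library size was −0.21. Over all genes tested on the TMM scale, 35.4% were called higher and 33.8% lower with age. The shares were 13.8% and 10.3% with EGCG in aged capsules, and 32.3% and 31.4% between EGCG and young control capsules.

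The transporters that moved with age included importers of several compartments. Slc39a13, the ZIP13 importer of intracellular vesicles, was 1.60-fold higher in aged control than in young control capsules (edgeR adjusted p = 1.42e-09), and Slc39a12, the ZIP12 importer, was 1.92-fold higher (edgeR adjusted p = 3.46e-06). Slc39a3, the plasma membrane importer ZIP3, was 1.75-fold lower (edgeR adjusted p = 3.51e-09). Slc39a7 was 1.31-fold higher on the TMM scale (edgeR adjusted p = 2.30e-07), with a log2 change of −0.023 when scaled to lens fibre genes.

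Slc39a12 and Slc39a3 were called in the opposite direction with EGCG. Slc39a12 was 1.66-fold lower in EGCG than in aged control capsules (edgeR adjusted p = 0.000804), at 9.35 ± 0.875 CPM in EGCG libraries, 15.5 ± 2.40 in aged control libraries and 8.04 ± 1.79 in young control libraries (SD, n = 3 each). Slc39a3 was 1.31-fold higher (edgeR adjusted p = 0.00501), at 26.3 ± 2.29 CPM in EGCG libraries, 20.1 ± 1.70 in aged control libraries and 35.2 ± 1.43 in young control libraries (SD, n = 3 each). Slc30a6, ZnT6, part of a transporter that loads zinc into the Golgi, was 1.51-fold lower on the TMM scale (edgeR adjusted p = 0.0433) and was not called when scaled by library size alone (edgeR adjusted p = 0.116). Tmem163, a zinc-binding transporter of vesicles, was 2.06-fold higher (edgeR adjusted p = 0.0471), on 29 to 47 counts in EGCG libraries and 15 to 25 counts in aged control libraries.

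**Figure D4:**
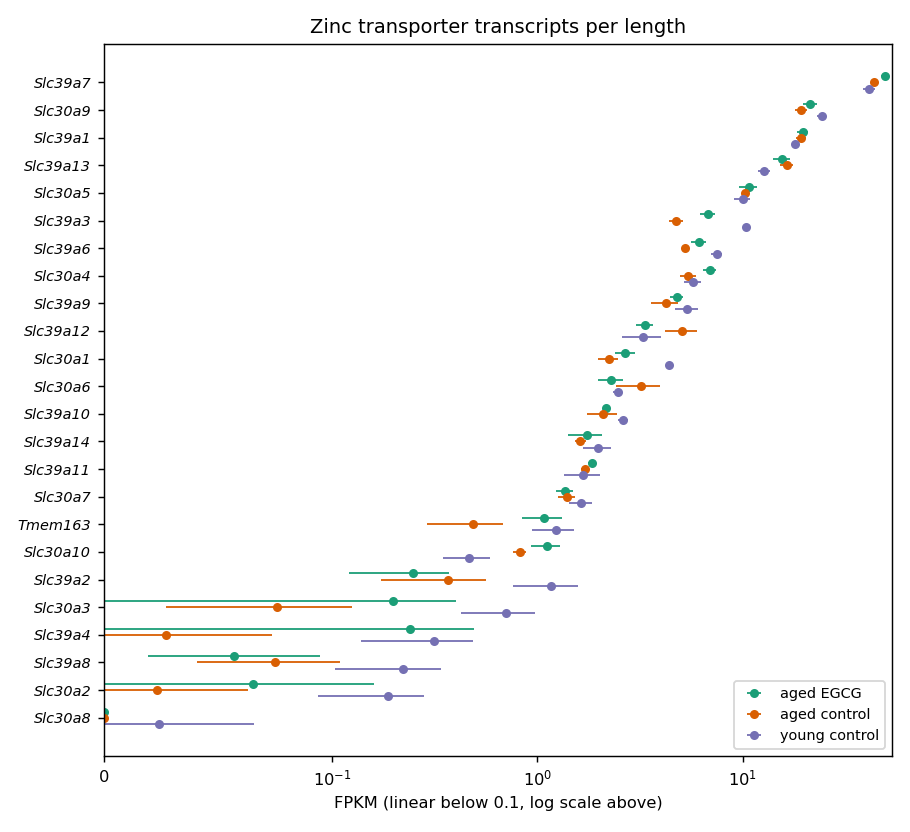
Mean and SD of FPKM over 3 libraries for the zinc transporters of the SLC30 and SLC39 families and Tmem163 with a count, ordered by level, with aged EGCG above aged control and young control in each row; the axis is logarithmic above 0.1 and linear below it. Slc39a7 is highest at 41.5 to 49.3 FPKM, and Slc39a1 is the highest of the 4 transporters among the members.

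Of the 7 tested genes on a list of other known MTF1 targets, 5 rose, 1 fell and 1 was not called in aged control relative to young control capsules, with a median log2 change of 0.68 on the TMM scale and 0.36 by library size alone. Scaled to lens fibre genes the calls were 4 higher and 3 lower, beside 2399 higher and 7042 lower of all 13711 genes. The median of all genes with age was 0.02 on the TMM scale and −0.30 by library size alone. Ndrg1, a hypoxia- and metal-responsive gene, was 1.89-fold higher (edgeR adjusted p = 8.96e-25). Selenow, which encodes a selenoprotein, was 1.81-fold higher (edgeR adjusted p = 2.53e-18), and Csrp1, a LIM-domain protein gene, was 1.61-fold higher (edgeR adjusted p = 4.66e-17). Slc40a1, which encodes the iron exporter ferroportin, was 2.88-fold lower (edgeR adjusted p = 0.000211). In EGCG relative to aged control capsules 3 fell and 4 were not called, with a median of −0.10 on the TMM scale and 0.02 by library size alone. All genes had medians of −0.0038 and 0.12 on these scales. Plekhf1 was 3.29-fold lower (edgeR adjusted p = 4.01e-05), at 2.004 ± 0.739 CPM in EGCG libraries, 6.58 ± 0.283 in aged control libraries and 2.80 ± 1.29 in young control libraries (SD, n = 3 each). Csrp1 was 1.17-fold lower and Selenow 1.12-fold lower on the TMM scale (edgeR adjusted p = 0.000259 and 0.0221), and neither was called by library size alone. Between EGCG and young control capsules 4 of the 7 rose and 3 were not called. Of all genes tested on the TMM scale, 35.4% were called higher and 33.8% lower with age. The shares were 13.8% and 10.3% with EGCG in aged capsules, and 32.3% and 31.4% between EGCG and young control capsules.

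Glucocorticoids and interleukin-6 acting through STAT3 are known inducers of Mt1 and Mt2 in mouse liver. Of 14 tested glucocorticoid-responsive genes, 7 rose and 3 fell with age on the TMM scale (median log2 change 0.46), and by library size alone the calls were 4 higher and 5 lower (median 0.14). By library size 2937 of all 13711 genes were called higher with age and 6445 lower, with a median of −0.30. In the glucocorticoid list 1 rose and 4 fell with EGCG in aged capsules (median −0.24). Dusp1, a phosphatase of MAP kinases, was 1.80-fold lower in EGCG than in aged control capsules (edgeR adjusted p = 6.29e-15), and the clock gene Per1 was 1.53-fold lower (edgeR adjusted p = 2.15e-06). Klf9, a transcription factor induced by the glucocorticoid receptor, was 2.39-fold lower with age (edgeR adjusted p = 4.02e-14), and the kinase gene Sgk1 was 1.60-fold lower (edgeR adjusted p = 6.08e-14). Fkbp5, which encodes a chaperone of that receptor, was 1.68-fold higher with age (edgeR adjusted p = 4.46e-08), and Lcn2, which encodes the iron-binding protein lipocalin 2, was 4.79-fold higher (edgeR adjusted p = 3.79e-10). Of 12 tested genes of interleukin-6 and STAT3 signalling, 6 rose and 5 fell with age (median 0.25 on the TMM scale and −0.069 by library size alone), and 5 fell and 7 were not called with EGCG (median −0.18). The acute phase gene Serpina3n was 3.98-fold higher with age (edgeR adjusted p = 6.49e-22) and 1.83-fold lower with EGCG in aged capsules (edgeR adjusted p = 5.21e-10). Socs3, which encodes an inhibitor of this signalling induced by STAT3, was 2.03-fold lower with age (edgeR adjusted p = 4.70e-10). Cebpb, a transcription factor of the acute phase response, was 3.59-fold higher with age (edgeR adjusted p = 2.29e-11), and the receptor gene Il6st was 1.47-fold higher (edgeR adjusted p = 1.35e-11) but was not called when scaled to lens fibre genes (edgeR adjusted p = 0.0528). Stat3 itself was 1.27-fold lower with EGCG (edgeR adjusted p = 0.00075), and was not called when scaled to lens fibre genes (edgeR adjusted p = 0.124). Between EGCG and young control capsules 3 glucocorticoid-responsive genes rose and 5 fell, and 5 genes of the interleukin-6 list rose and 5 fell. On the TMM scale these counts stand beside 35.4% of all genes called higher and 33.8% lower with age. The shares were 13.8% and 10.3% with EGCG in aged capsules, and 32.3% and 31.4% between EGCG and young control capsules.

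Genes whose pattern over the 9 libraries was most like that of a member were found among 10521 genes by the root mean square difference of centred log2 CPM. For Mt1 these were Pbx4, Medag and Spaca6, with differences of 0.159, 0.166 and 0.170 log2 units, and Mt2 came at rank 7 with 0.184. For Mt2 they were Spaca6, Tns2 and Kcnj13, with 0.133, 0.148 and 0.154 log2 units. For Slc30a1 they were Ankrd27, Hirip3 and Sc5d, with 0.0327, 0.0651 and 0.0673 log2 units. Ankrd27 stood at 16.6 ± 2.09 CPM in EGCG libraries, 14.9 ± 1.07 in aged control libraries and 23.8 ± 0.708 in young control libraries (SD, n = 3 each). Such likeness describes these libraries, whose groups alone give many genes a similar order.

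Transcripts of retina were present in these capsule libraries and moved with several members. The summed share of 26 photoreceptor genes was 1.15% to 1.16% of counts in EGCG libraries, 0.138% to 0.149% in aged control libraries and 2.99% to 3.01% in young control libraries. All 26 were called lower with age, higher with EGCG in aged capsules, and lower in EGCG than in young control capsules. The group means of Mt3, Mtf1 and Slc30a1 had the same order as this share, young control highest and aged control lowest. EGCG and aged control libraries overlapped for Mtf1 and Slc30a1 and did not for Mt3. The share of 11 Müller glia and astrocyte genes was 0.0859% to 0.0891% in EGCG libraries, 0.0662% to 0.0722% in aged control libraries and 0.172% to 0.176% in young control libraries. No gene of either list was at 0 in all libraries of a group. With age 1 of these 11 rose and 8 fell, and with EGCG in aged capsules 4 rose and 2 fell. Genes of red blood cells had the same order at a lower share, with 0.00198% to 0.00251% of counts in EGCG libraries, 0.000569% to 0.000715% in aged control libraries and 0.0232% to 0.0241% in young control libraries. Epb42 had no count in any EGCG library and Slc4a1 had none in any aged control library. All 5 tested were called lower with age, and 4 of the 5 were called higher with EGCG in aged capsules. The retinal pigment epithelium list was lowest in EGCG libraries, at 0.0207% to 0.0216% of counts. It took 0.0240% to 0.0256% in aged control and 0.0380% to 0.0397% in young control libraries. Of its 11 tested genes, 4 were called higher and 2 lower with EGCG in aged capsules. The counts of these lists stand beside 35.4% of all genes called higher and 33.8% lower with age. With EGCG in aged capsules the shares of all genes were 13.8% and 10.3%. Between EGCG and young control capsules 31.4% of all genes were called lower. The endothelial list took 0.0170% to 0.0172% in young control libraries, and its lower shares in EGCG and aged control libraries overlapped. The immune shares of all 3 groups overlapped. In bulk tissue, fewer cells of a type and less RNA per cell cannot be told apart, and the part of retinal and blood transcripts in the changes of Mt3, Mtf1 and Slc30a1 was not tested.

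**Figure D5:**
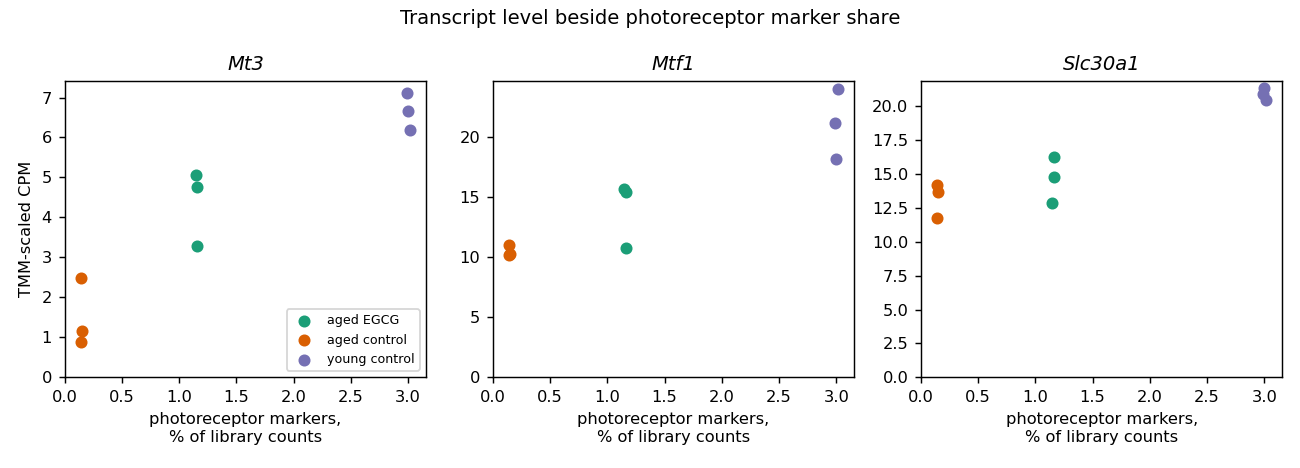
Level of Mt3, Mtf1 and Slc30a1 in each library, as TMM-scaled CPM, against the summed share of 26 photoreceptor genes in percent of the library's counts, both on linear axes from 0. The groups form 3 separate clusters along the horizontal axis, near 1.16% for aged EGCG, 0.141% for aged control and 3.0% for young control, with the aged control libraries lowest and the young control libraries highest in Mt3.

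Defining genes of the lens were present in all groups. The lens epithelium list took 1.001% to 1.02% of counts in EGCG libraries, 0.997% to 1.06% in aged control libraries and 0.818% to 0.827% in young control libraries. The lens fibre list took 3.88% to 3.99% in EGCG libraries, 3.998% to 4.19% in aged control libraries and 4.58% to 4.59% in young control libraries. With age 14 of 20 lens epithelium genes and 13 of 19 lens fibre genes were called higher on the TMM scale, and 2 and 5 were called lower. With EGCG in aged capsules 10 of the 20 epithelium genes were called lower and 1 higher, and 11 of the 19 fibre genes were called lower and 8 were not called. Over all genes tested 35.4% were called higher and 33.8% lower with age, and 13.8% and 10.3% with EGCG in aged capsules.

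Other shares, in percent of library counts, were highest in aged control libraries. The means of Mt1 and Mt2 were highest there on the TMM scale, which differs from that of the shares. In FPKM, which like the shares rests on library totals, Mt1 averaged 19.9 ± 5.14 in aged control and 21.5 ± 2.26 in young control libraries. Mt2 averaged 21.7 ± 3.36 and 20.9 ± 1.86 FPKM in these groups (SD, n = 3 each). The corneal epithelium list took 0.181% to 0.186% of counts in EGCG libraries, 0.208% to 0.217% in aged control libraries and 0.0903% to 0.0924% in young control libraries. The iris and ciliary body list took 0.0533% to 0.0568% in EGCG libraries, 0.0688% to 0.0728% in aged control libraries and 0.0382% to 0.0400% in young control libraries. Of the corneal list Muc4 and Cldn4 had no count in any EGCG library, and Krt14 and Cldn4 had none in any aged control library. Of the iris and ciliary body list Cnn1 had none in any EGCG library. With age 4 of the 7 tested corneal genes were called higher and 3 lower (median log2 change 1.12). Of the 8 tested iris and ciliary body genes 4 were called higher and 4 lower (median −0.45). Over all genes tested 35.4% were called higher and 33.8% lower, and the shares do not stand for every gene of these lists. With EGCG in aged capsules 3 of the 7 and 2 of the 8 were called lower and 0 higher. Of all genes tested in that comparison 10.3% were called lower and 13.8% higher. The part of the corneal, iris and ciliary body and lens lists in the changes of Mt1 and Mt2 was not tested.

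Changes with age also moved with transcript length. With all tested genes cut into 10 bins of equal number by length, the median log2 change between aged and young control capsules was 0.52 in the bin of shortest genes and −0.57 in that of longest genes. The 3 metallothioneins are in the shortest bin, Slc39a1 in bin 3 with a median of 0.26, Slc30a1 in bin 7 with −0.14, Mtf1 and Slc39a14 in bin 9 with −0.33, and Slc39a10 in the longest. These are the lengths behind the FPKM. The 6095 exonic bases of Slc39a10 in the annotation would lie in bin 8, with a median of −0.21. Between EGCG and aged control capsules the medians of the bins lay between −0.10 and 0.04. With the length trend removed the age changes were −0.27 for Mt1, −0.15 for Mt2, −0.71 for Mtf1 and −0.52 for Slc30a1, and the part of length in these changes was not tested further. An antisense gene, Gm45774, overlaps 432 exonic bases of Mt2, 73.5% of its exons, and another, 1700034H15Rik, overlaps 468 exonic bases of Slc30a1. Neither has a value used here, so reads from them cannot be told apart from those of Mt2 and Slc30a1.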

How the data were processed

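Total RNA of 9 mouse anterior lens capsule samples was made into SMARTER mRNA-Seq libraries, per the labels' protocols, and the submitters' processing notes name the genome build GRCm38 (mm10). The sources used here name no aligner, counter, annotation or strand setting. Whole-number read counts per gene and FPKM values were deposited by the authors. Every non-zero FPKM (138164 entries) matched, within 0.01%, its count over 1 length per gene and the library total, which gave the lengths used here.

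Library totals were 13184169 to 16528179 counts, and 3 counts correspond to 0.183 to 0.232 CPM. Intervals hold no error beyond counting and the spread among libraries. Counts were tested with edgeR 4.0.16 (glmQLFit and glmQLFTest, two-sided, TMM, filterByExpr) in R 4.3.3, in 1 fit of 3 group means over all 9 libraries, with Benjamini-Hochberg adjustment over 13711 genes and calls at an adjusted p under 0.05. TMM factors were 0.981 to 0.989 in EGCG, 0.881 to 0.926 in aged control and 1.12 to 1.13 in young control libraries, and the biological coefficient of variation was 7.89%. The procedure was run on simulated data in which few genes changed, unlike the age comparison here. That run therefore does not bear on the choice of scaling. Alternatives were other scalings (size factors of DESeq2, library size, lens fibre genes, a removed length trend), no filter, DESeq2 1.42.0, limma 3.58.1 on log2(FPKM + 1) and log2(FPKM + 0.1), 2 groups only, each library left out, and a replicate block.

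The genes and lists were chosen with earlier results of these data known. Named genes were the 8 members, up to 4 called genes with the smallest p per list in the first 2 comparisons, and the 3 genes of most like pattern for Mt1, Mt2 and Slc30a1, among genes averaging at least 5 CPM (prior count 1). No pair of replicates agreed within sampling noise.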

Additional observations from a re-analysis of the deposited data

How the results depend on the processing

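For age, 5 members were called, 4 to 6 when 1 library was left out and 3 on log2(FPKM + 1), on log2(FPKM + 0.1) or on log2(FPKM + 1) without a filter. For EGCG against aged control 4 were called, 2 on log2(FPKM + 1) with or without a filter, and 2 to 4 when 1 library was left out, the 2 being without aged control replicate 2. For EGCG against young control 5 were called, and 3 to 6 when 1 library was left out, the 3 being without EGCG replicate 2. With the replicate block the calls were 5, 4 and 6, and the log2 change of Mt2 in EGCG against young control was −0.39 (edgeR adjusted p = 0.0471). Replicate numbers name samples only, since same-numbered libraries had correlations of −0.025 to 0.029 in their deviations. The block turned no other call.

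The median of all genes with age was 0.02 in the fit used, −0.30 by library size, −0.39 by lens fibre genes and −0.18 on log2(FPKM + 1), so age changes are relative to it. All genes split into 4847 higher and 4635 lower with age, 2937 and 6445 by library size, and 2399 and 7042 by lens fibre genes. For EGCG against aged control these were 1894 and 1406, 3086 and 611, and 3626 and 470, with medians of −0.0038, 0.12 and 0.16. On log2(FPKM + 1) the splits were 2947 and 6424 with age and 2401 and 507 for EGCG against aged control. For EGCG against young control they were 4424 and 4301, and 2757 and 5917 by lens fibre genes. By lens fibre genes the age calls, higher and lower, were 3 and 10 for zinc transporters (7 and 5 in the fit used), 4 and 3 for MTF1 targets (5 and 1), 3 and 6 for copper handling (5 and 2), 4 and 5 for glucocorticoid-responsive genes (7 and 3) and 2 and 6 for interleukin-6 and STAT3 (6 and 5).

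Signs turned as follows, and the cause was not tested. The age change of Mt1 was −0.11 by library size, −0.19 by lens fibre genes, −0.27 with the length trend removed, −0.13 on log2(FPKM + 1) and −0.14 on log2(FPKM + 0.1). That of Mt2 was −0.15 with the length trend removed and −0.032 by lens fibre genes. That of Slc39a10 was 0.57 with the length trend removed, at a length of 15958 bases against 6095 in the annotation. That of Slc39a14 was −0.0091 with DESeq2 size factors, −0.0094 in DESeq2, −0.29 by library size, −0.37 by lens fibre genes, −0.18 on log2(FPKM + 1) and −0.26 on log2(FPKM + 0.1). For EGCG against aged control, library size, lens fibre genes, log2(FPKM + 1) and log2(FPKM + 0.1) in turn gave 0.031, 0.071, 0.031 and 0.032 for Slc39a1, 0.045, 0.087, 0.033 and 0.050 for Slc39a10, and 0.099, 0.13, 0.056 and 0.081 for Slc39a14. For EGCG against young control, Slc39a10 was 0.46 with the length trend removed, at the same length of 15958 bases. Slc39a14 there was −0.044 with DESeq2 size factors and in DESeq2, −0.19 by library size, −0.24 by lens fibre genes, −0.12 on log2(FPKM + 1), −0.18 on log2(FPKM + 0.1) and −0.0020 with the replicate block.

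Leaving out 1 library gave age changes of −0.022 to 0.35 for Mt1, −0.13 to 0.057 for Slc39a10 and −0.091 to 0.12 for Slc39a14. It gave −0.15 to 0.037 for Slc39a10 and −0.19 to 0.086 for Slc39a14 in EGCG against aged control, and −0.15 to 0.12 for Slc39a14 in EGCG against young control. Mt3 in aged control libraries rests on 13 to 36 counts, which limits its precision.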

Other observations

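Copper is the other metal that metallothioneins hold. Of 11 tested genes of copper handling, 5 rose and 2 fell between aged control and young control capsules, with a median log2 change of 0.01 on the TMM scale and −0.31 by library size alone. All genes had medians of 0.02 and −0.30 on these scales. Cp, which encodes the copper-carrying ferroxidase ceruloplasmin, was 1.57-fold higher (edgeR adjusted p = 2.24e-16), at 329 ± 5.81 CPM in EGCG libraries, 405 ± 22.4 in aged control libraries and 258 ± 5.94 in young control libraries (SD, n = 3 each). Ccs, the copper chaperone of superoxide dismutase, was 1.82-fold higher (edgeR adjusted p = 5.35e-13), and Cox17, a copper chaperone of mitochondria, was 1.58-fold higher (edgeR adjusted p = 3.92e-10). Slc31a2, which encodes the copper transporter CTR2, was 2.07-fold lower (edgeR adjusted p = 1.97e-13). With EGCG in aged capsules Cp was the 1 gene called, 1.23-fold lower (edgeR adjusted p = 2.84e-06), and it was not called when scaled to lens fibre genes (edgeR adjusted p = 0.0887). Between EGCG and young control capsules 5 rose and 3 fell. Over all genes tested 35.4% were called higher and 33.8% lower with age. The shares were 13.8% and 10.3% with EGCG in aged capsules, and 32.3% and 31.4% between EGCG and young control capsules.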
